A study of Gallus gallus with 14 samples.

Results

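The genes of the proteasome were followed in the retina of White Leghorn chickens whose eyes had worn a -10 D lens for 3 days and in control retinas. Subunit genes were taken as the rows of the deposited table whose symbol is PSMA, PSMB, PSMC or PSMD followed by a number, which gave 30 of 18631 genes, and all 30 passed the filter on low values. They comprised 7 genes of the outer ring of the core (PSMA), 5 of its inner ring (PSMB), 5 ATPases (PSMC), 7 genes of the lid, 3 genes of the base that are not ATPases (PSMD1, PSMD2 and PSMD4), and 3 assembly chaperones that carry a PSMD symbol (PSMD5, PSMD9 and PSMD10). The subunit genes PSMB5, PSMB6, PSMC4 and PSMD8 were not analysed here. All birds were wild type, and the age label of both groups reads postnatal day 3. Lenses were fitted at 3 days of age on the feathers around the eye, and tissue was taken when they were removed. Each group held 7 libraries of total RNA depleted of ribosomal RNA. The labels do not say whether a control retina came from a separate bird or from the other eye of a lens-wearing bird, and the codes of both groups share no number, so p-values measure the spread between these libraries.

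The proteasome is the main protease of the cytosol and nucleus and degrades proteins that carry ubiquitin chains. Its core particle is a barrel of stacked alpha and beta rings with the proteolytic sites inside, and its regulatory particle caps the barrel. In the regulatory particle a ring of ATPases unfolds the substrate, scaffold and receptor subunits of the base bind ubiquitin and shuttle proteins, and a lid removes the ubiquitin chain. Subunits are built into the complex in fixed proportions, and in mammals the transcription factor NFE2L1 raises their genes together when proteasome activity is short. In the retina, photoreceptors renew their light-sensing outer segments continually and rely on this pathway to remove misfolded protein. A negative lens moves the focal plane behind the retina, and the eye of a young chick grows longer in response.

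Values are CPM, the reads of a gene scaled to the reads of its library, and the step worth 1 read placed the libraries at 30.8 to 41.4 M reads, with 37.4 ± 3.06 M in controls and 37.5 ± 3.80 M in lens retinas (SD, n = 7 each). W-linked RNA, carried by females in birds, was found in 4 of the 7 controls and in 1 lens library of 7, and none of the 30 genes lies on chromosome Z or W. Summed over 7 photoreceptor markers, levels ran from 1361 to 1602 CPM in controls and from 988 to 1464 CPM in lens retinas. Of these 7 markers, 5 had an unadjusted p under 0.05, a level that 13.5% of all genes reached, and 0 passed the limma test over all genes. Müller glia markers, 4 in number, summed to 760 to 926 CPM in controls and 807 to 852 CPM in lens retinas. Lens replicate 6, the library with the fewest reads, was the highest of the lens libraries for 4 subunit genes by a wide gap (PSMA5, PSMC2, PSMD3 and PSMD10). It was also the highest lens library for further subunit genes, PSMB7 and PSMD11 among them, and the lowest for PSMA4, PSMC1, PSMC6 and PSMD7. Pigment epithelium markers summed to 6.11 to 10.8 CPM and 4.01 to 8.07 CPM. Markers of microglia and leukocytes summed to 6.07 to 9.61 CPM and 5.09 to 7.17 CPM, with 2 of 5 at an unadjusted p under 0.05. Ganglion cell markers had a median sum of 146 CPM in controls and 119.6 CPM in lens retinas, with 1 of 5 at that level. In the same order, median sums were 124 and 151 CPM for oligodendrocytes and 47.8 and 58.6 CPM for horizontal cells. They were 252 and 247 CPM for bipolar cells and 497 and 490 CPM for amacrine cells. None of these markers passed the test over all genes. In tissue RNA, fewer cells of a type and less RNA per cell cannot be told apart.

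PSMD2 stood apart from the other subunit genes: its level was lower in the lens retinas, while the other 29 had groups that overlapped. PSMD2 encodes the scaffold of the base (Rpn1 in yeast) that docks ubiquitin shuttle proteins and the deubiquitinase USP14. In controls its lowest, median and highest levels were 6.99, 8.18 and 10.3 CPM, and in lens retinas 5.51, 5.97 and 6.95 CPM. All lens libraries lay below all control libraries, although the highest lens library and the lowest control library nearly met. The gene rested on 257 to 425 reads per control library and 184 to 286 per lens library. Its mean was 8.62 ± 1.23 CPM in controls and 6.06 ± 0.453 CPM in lens retinas (SD, n = 7 each) (-29.7%). The difference in log2(CPM + 1), where the added 1 shrinks fold changes of weakly expressed genes, was -0.44 (SE 0.08, 95% interval -0.62 to -0.26).

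With limma over all 14259 genes tested and Benjamini-Hochberg adjustment, PSMD2 had an adjusted p of 0.0631 and did not pass 0.05, ranking 13 by p-value (unadjusted p = 6.01e-05). The exact permutation test over all 3432 assignments of the libraries, two-sided, gave p = 0.000583, the smallest it can give. That value is fixed once the groups do not overlap, so it restates the separation described above. Over all genes tested, 0.0771% passed at an adjusted p under 0.05, and 0 of the 30 subunit genes did. By direction, 0.0701% of all genes passed as lower and 0.00701% as higher. At an unadjusted p under 0.05 there was 1 subunit gene, PSMD2, where 13.5% of all genes tested reached that level. By the exact permutation test 1 of 30 had an unadjusted p under 0.05, again PSMD2, where 12.3% of all genes did. The groups did not overlap for 1 of 30 subunit genes and for 0.266% of all genes tested, with lens below control for 0.224%. With 1 library left out PSMD2 passed in 2 of 14 limma fits, those without control replicate 5 (adjusted p = 0.0332) or lens replicate 7 (0.049), and adjusted p reached 0.172 without control replicate 7. It did not pass without a filter (0.0987) or with a pseudocount of 5 (0.0801). It passed with a pseudocount of 0.1, with a filter of 2 CPM and with a term for the L or R that ends each sample code (adjusted p = 0.0494, 0.0493 and 0.0391).

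**Figure D1:**
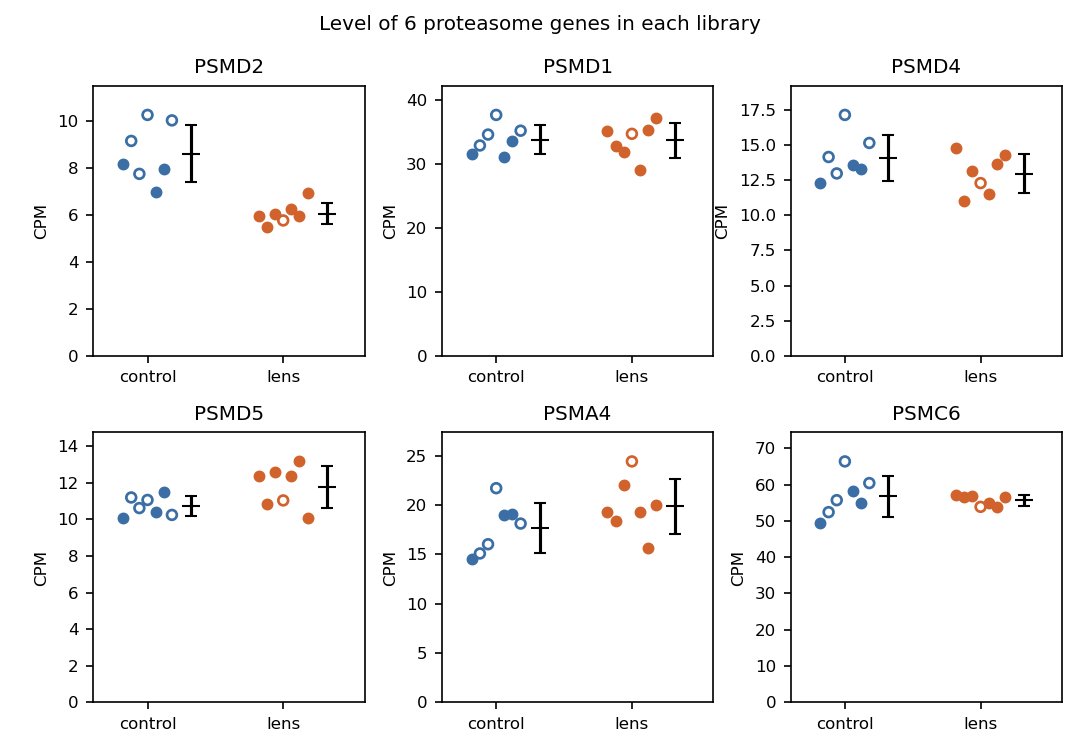
Level in CPM (vertical axis, from 0) of 6 proteasome genes in the 7 control and 7 lens libraries. Each point is a library, open points carry W-linked RNA, and the black bar gives the mean and SD. For PSMD2 the lens libraries lie at 5.51 to 6.95 CPM and the controls at 6.99 to 10.3 CPM, while the groups overlap for PSMD1, PSMD4, PSMD5, PSMA4 and PSMC6.

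The level of PSMD2 is given apart for controls with and without W-linked RNA, a difference that was not tested. The 4 control libraries with it stood at 7.75 to 10.3 CPM and the 3 without it at 6.99 to 8.18 CPM, with overlap. The single lens library with it, replicate 4, stood at 5.77 CPM, within the range of the other lens libraries. A fit with a term for W-linked RNA put the lens difference at -0.38 (SE 0.09, limma adjusted p = 0.129 over all genes). Among the 9 libraries without it, 3 control and 6 lens, it was -0.29 (adjusted p = 0.474, unadjusted p = 0.0113). In those 9 libraries PSMD2 averaged 7.71 ± 0.636 CPM in controls and 6.11 ± 0.476 CPM in lens retinas (SD, n = 3 and 6). The part of W-linked RNA and of cell type markers in this difference was not tested beyond these values. By the covariate fit 0 of 30 subunit genes passed, where 0.133% of all genes did, and among the 9 libraries 0 passed, where 0.014% did. At an unadjusted p under 0.05 the covariate fit had 1 subunit gene, PSMD2, against 11.2% of all genes. The 9 libraries had 2, PSMD2 and PSMA2 (0.19, limma unadjusted p = 0.0484), against 8.08%.

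The summed level of the other 29 genes was nearly the same in both groups, 408 ± 28.3 CPM in controls and 409 ± 16.3 CPM in lens retinas (SD, n = 7 each). PSMD2 made up 1.72% to 2.42% of the summed level of all 30 genes in controls, with a median of 2.16%. In lens retinas it made up 1.36% to 1.62%, with a median of 1.42%. PSMD1, the other large scaffold of the base (Rpn2 in yeast), is the closest structural relative of PSMD2. The ratio of PSMD2 to PSMD1 ran from 0.224 to 0.285 in controls and from 0.166 to 0.215 in lens retinas, without overlap. This ratio and the shares above draw on the same PSMD2 values, so they are not a separate result. The ratio to PSMD4, a ubiquitin receptor (Rpn10), ran from 0.514 to 0.664 in controls and from 0.403 to 0.542 in lens retinas, and here the groups overlapped. On the log2(CPM + 1) scale the fold change of PSMD2 minus the median of the other 29 was -0.42. It was -0.39 with a term for W-linked RNA and -0.35 in the 9 libraries that lack it.

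**Figure D2:**
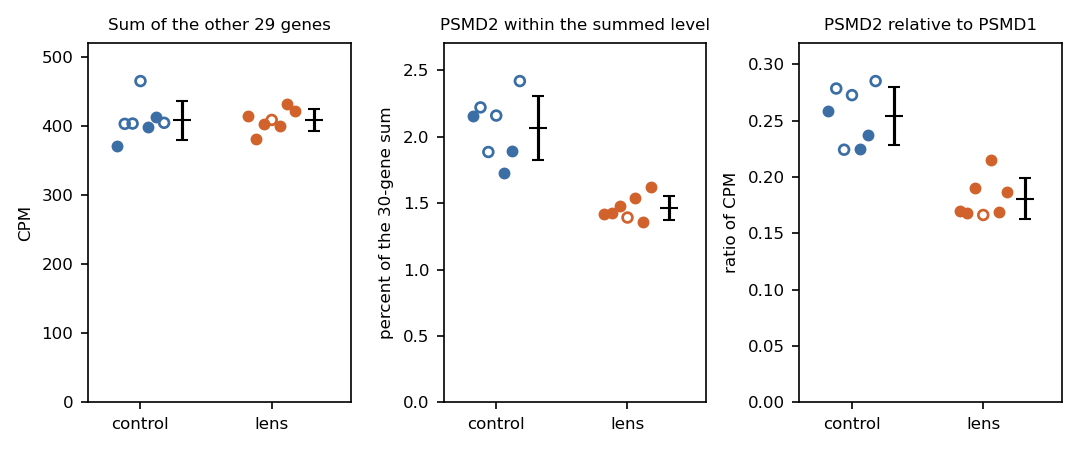
Summed level of the other 29 subunit genes (left, CPM), PSMD2 as a percent of the summed level of all 30 genes (middle) and the ratio of PSMD2 to PSMD1 (right), in each library. Points and bars are as in the plot of single genes. The sums overlap widely, whereas PSMD2 makes up 1.72% to 2.42% in controls and 1.36% to 1.62% in lens retinas.

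The outer ring of the core gates entry to the proteolytic chamber, and none of its 7 genes passed the test. The log2 fold changes ran from -0.21 for PSMA1 to 0.16 for PSMA4, with a median of 0.02 over the 7 genes against -0.04 over all genes tested, and 3 of the 7 were below 0. PSMA4 had the third smallest p-value of the 30. Its lowest, median and highest levels were 14.6, 18.1 and 21.7 CPM in controls and 15.6, 19.3 and 24.4 CPM in lens retinas. Controls thus spread over most of the lens range (SE 0.09, limma adjusted p = 0.464). PSMA1 varied more than any other gene of the ring, from 11.8 to 30.9 CPM in controls and from 12.0 to 26.9 CPM in lens retinas, so that its interval of -0.61 to 0.19 was wide. PSMA2, PSMA3, PSMA5 and PSMA6 stood at 0.05, -0.06, 0.10 and -0.04 on the log2 fold change scale. PSMA7 was steadier, at 19.4 ± 1.34 CPM in controls and 19.8 ± 1.99 CPM in lens retinas (SD, n = 7 each).

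In the inner ring, which carries the proteolytic sites, 5 genes were measured and 0 passed by limma over all genes, with 0 at an unadjusted p under 0.05. Log2 fold changes ran from -0.14 for PSMB7 to 0.09 for PSMB1, with a median of 0.01. PSMB7 is the subunit with trypsin-like activity, and PSMB5 and PSMB6 of this ring were not among the genes measured. It stood at 11.6 ± 0.714 CPM in controls and 10.6 ± 1.70 CPM in lens retinas (SD, n = 7 each; limma adjusted p = 0.502). PSMB1, PSMB2, PSMB3 and PSMB4 are structural members of the ring. PSMB2 and PSMB4 had log2 fold changes of 0.06 and 0.01. PSMB1 stood at 21.3 ± 3.07 and 22.6 ± 2.05 CPM, and PSMB3 at 5.95 ± 0.994 and 5.36 ± 1.09 CPM, in controls and lens retinas.

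The ATPases of the base thread the substrate into the core, and none of their 5 measured genes passed the test. Log2 fold changes ran from -0.06 for PSMC2 to 0.09 for PSMC3, with a median of -0.02, the narrowest span of the 6 classes. Summed over the 5 genes, controls stood at 107.6 to 139 CPM and lens retinas at 119 to 127 CPM. PSMC6, the gene in the middle of the 30 by log2 fold change, had lowest, median and highest levels of 49.3, 55.7 and 66.4 CPM in controls and 53.7, 56.4 and 57.2 CPM in lens retinas. The lens libraries therefore lay inside the range of the controls, and the difference was -0.02 (SE 0.06, limma adjusted p = 0.892). PSMC1 and PSMC5 had log2 fold changes of -0.03 and 0.08. PSMC3 stood at 26.2 ± 2.56 CPM in controls and 27.8 ± 1.98 CPM in lens retinas (SD, n = 7 each).

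In the lid 7 genes were measured, and their median log2 fold change was -0.02, with 4 of 7 below 0 where 63.3% of all genes tested were. The extremes of the class were PSMD11 at -0.25 and PSMD7 at 0.17. PSMD11 clamps the lid to the core (Rpn6 in yeast). It ran from 2.68 to 4.39 CPM in controls and from 1.57 to 5.58 CPM in lens retinas, with the highest value in lens replicate 6. Without that library its difference was -0.39 (limma adjusted p = 0.163, unadjusted p = 0.00876). With any other library left out the difference ran from -0.30 to -0.17, and the limma unadjusted p was 0.113 or more. PSMD7 forms a dimer with the lid's deubiquitinase PSMD14. PSMD7 ran from 10.99 to 27.8 CPM in controls and from 11.6 to 25.2 CPM in lens retinas, a span of more than 10 CPM in each group, and its interval was -0.22 to 0.55. The other lid genes, PSMD3, PSMD6, PSMD12 and PSMD13, had log2 fold changes of -0.09, 0.10, -0.04 and 0.04. PSMD14 itself stood at 12.5 ± 1.81 CPM in controls and 12.3 ± 1.03 CPM in lens retinas (SD, n = 7 each).

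Of the base genes that are not ATPases, PSMD1 was at 33.8 ± 2.24 CPM in controls and 33.7 ± 2.69 CPM in lens retinas (SD, n = 7 each; log2 fold change -0.01, interval -0.13 to 0.12). PSMD4 was at 14.1 ± 1.62 and 13.0 ± 1.40 CPM (log2 fold change -0.11, limma adjusted p = 0.558). The interval of PSMD2, -0.62 to -0.26, does not overlap that of PSMD1 but overlaps that of PSMD4, -0.28 to 0.06. It also overlaps those of further subunit genes, among them PSMD11 (-0.61 to 0.10) and PSMA1 (-0.61 to 0.19). The chaperones PSMD5, PSMD9 and PSMD10 each hold ATPases during assembly of the base and leave the finished particle. PSMD5 had the second smallest p-value of the 30, with lowest, median and highest levels of 10.1, 10.6 and 11.5 CPM in controls and 10.1, 12.4 and 13.2 CPM in lens retinas. Most lens libraries lay above most controls, but the lowest values of both groups coincided. The log2 fold change of PSMD5 was 0.12 (SE 0.07, limma adjusted p = 0.44, exact permutation p = 0.0519). With median ratio scaling, equal column sums and quantile normalization its limma unadjusted p was 0.0161, 0.0327 and 0.0206. The limma adjusted p of PSMD5 in these fits was 0.267, 0.329 and 0.293. PSMD10, also known as gankyrin, stood at -0.10 and PSMD9 at -0.04.

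**Figure D3:**
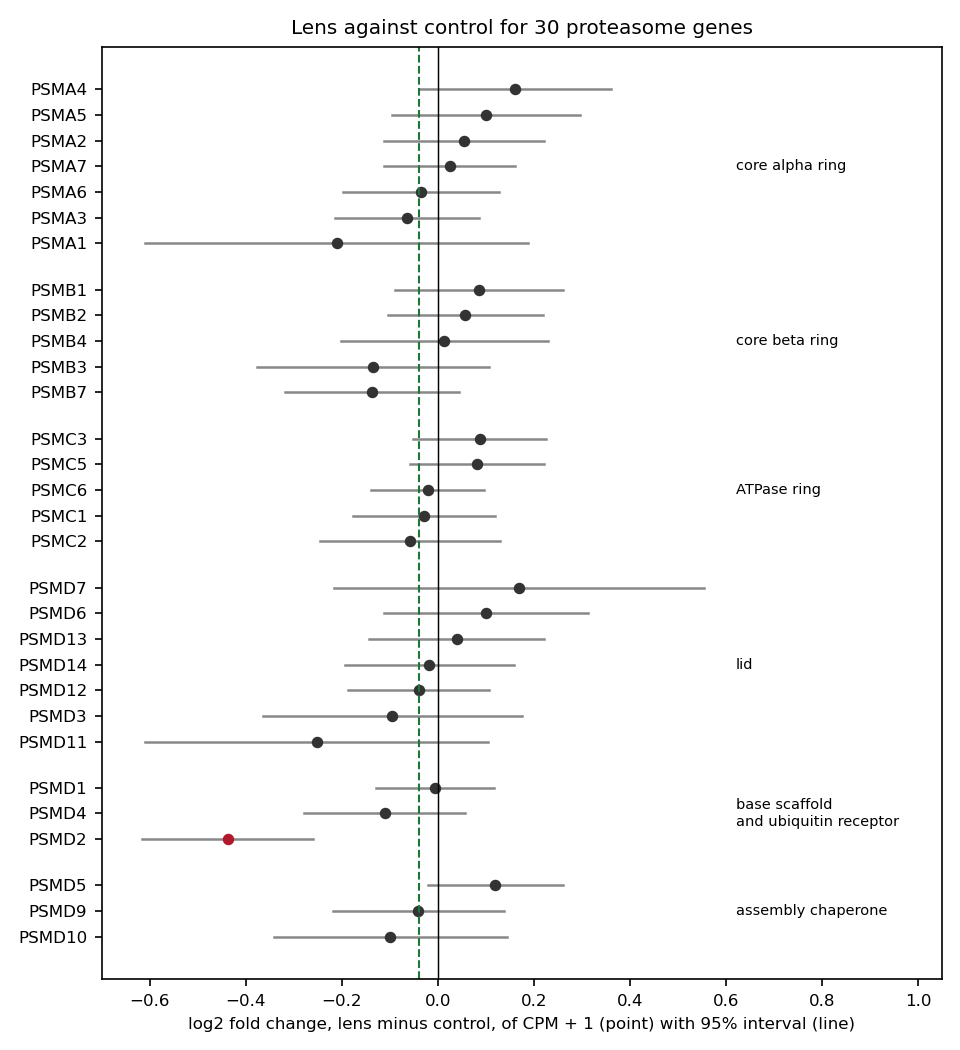
Log2 fold change of CPM + 1, lens minus control, for each of the 30 genes (horizontal axis; point with 95% interval from limma), grouped by place in the complex. The solid line marks 0 and the dashed line the median of all genes tested, -0.04. PSMD2, in red, has an interval of -0.62 to -0.26, and the intervals of the other 29 genes include 0.

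Pairs of the 30 genes ran from strongly positive to strongly negative correlations across libraries. The median Pearson r over their 435 pairs was 0.17 and 68.0% were above 0, where over all pairs of genes tested the median was 0.06 and 56.3% were above 0, as a description of libraries that share scaling. Within classes the median r was 0.08 for the outer ring, 0.21 for the inner ring, 0.20 for the ATPases, 0.00 for the lid and 0.04 for the chaperones. It was 0.64 over the 3 pairs of PSMD1, PSMD2 and PSMD4, all above 0. Each of the 435 pairs was tested by permutation with 100000 resamples, two-sided, a test chosen after the values were seen. After Benjamini-Hochberg adjustment over the pairs, 21 passed, 15 with a positive and 6 with a negative r, and 94 had an unadjusted p under 0.05. By Spearman's rho 18 passed, and 15 passed by both measures. On deviations from the group means 49 passed by Pearson r, 37 positive and 12 negative. By rho 12 passed on these deviations, and 11 passed by both measures. The test was not run over all pairs of genes. An r of 0.7 or more was found in 5.29% of subunit pairs and 1.88% of all pairs of genes tested. An r of -0.7 or less was found in 1.61% and 0.5%. Subunit genes and all genes tested were not matched for level, so these shares are a description.

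Of the 21 pairs 19 joined genes of different classes (90.5%), near the 84.4% of all 435 pairs that do. PSMA4 of the outer ring, PSMB1 of the inner ring and PSMD7 of the lid varied together. PSMA4 and PSMD7 had r = 0.91 and rho = 0.83 over 14 libraries (permutation adjusted p = 0.00435 and 0.0328), and r was 0.91 without the libraries farthest from the median of PSMA4. PSMB1 had r = 0.87 with PSMA4 and r = 0.86 with PSMD7 (permutation adjusted p = 0.0145 and 0.0174). PSMC6, an ATPase, and PSMD14, the deubiquitinase, had r = 0.89 and rho = 0.81 (permutation adjusted p = 0.0145 and 0.0328), and r was 0.69 without the libraries farthest from the median of PSMC6. A further set of pairs joined PSMB7 with PSMD11 (r = 0.81), PSMB3 with PSMC2 (r = 0.81) and PSMC2 with PSMD3 (r = 0.79), with permutation adjusted p of 0.0266, 0.0266 and 0.0284.

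Of the 6 negative pairs, 3 held PSMD10, which was in none of the positive pairs that passed, and the other 3 joined PSMA4 or PSMD7 with PSMB7 or PSMD3. PSMD7 had r = -0.82 with PSMD10, r = -0.81 with PSMD3 and r = -0.78 with PSMB7 (permutation adjusted p = 0.0266, 0.0266 and 0.0284). PSMA4 had r = -0.78 with both PSMB7 and PSMD10, and PSMB1 had r = -0.81 with PSMD10. Libraries of both groups lay at each end. PSMD7 was lowest in control replicate 2 at 10.99 CPM and lens replicate 6 at 11.6 CPM, and PSMD3 was highest in the same libraries, at 13.5 and 14.5 CPM. Among the 9 libraries without W-linked RNA r was 0.88 for PSMA4 with PSMD7 and -0.91 for PSMD3 with PSMD7, and 1 pair passed, PSMB7 with PSMD7 (r = -0.93, permutation adjusted p = 0.0478). The 5 libraries with W-linked RNA were too few for a value. The count of 21 pairs was 11 without control replicate 1, 3 without control replicate 2, 10 without control replicate 3, 12 without control replicate 4. Leaving out lens replicate 6 gave 6 pairs. The r of PSMA4 with PSMD7 stayed between 0.89 and 0.92 whichever library was left out.

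**Figure D4:**
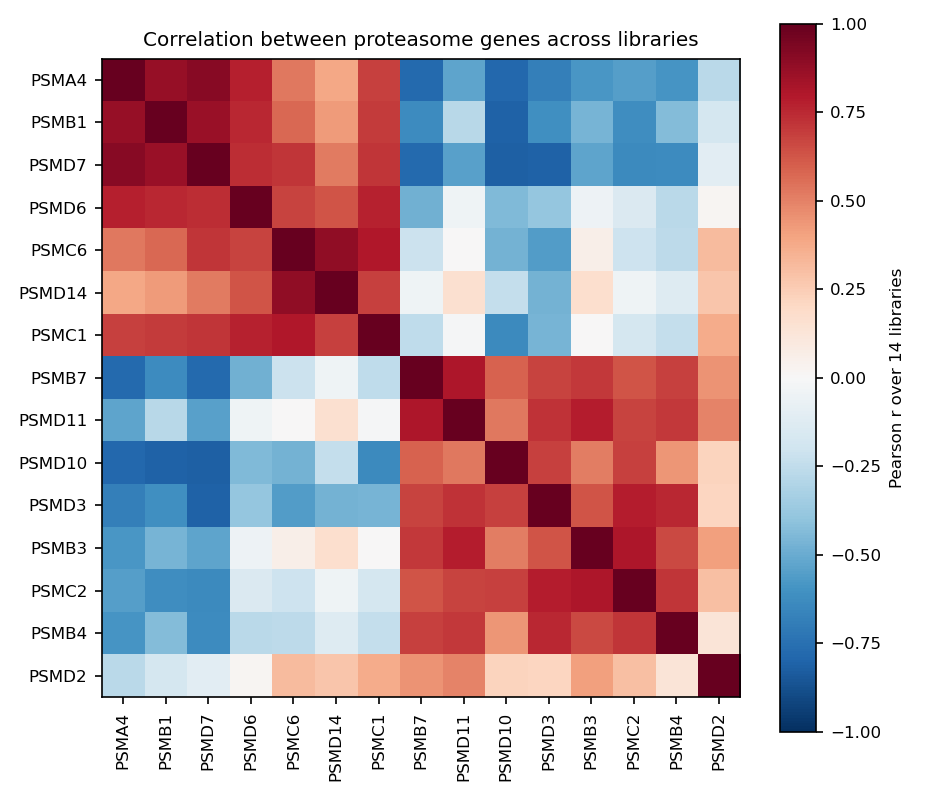
Pearson r over the 14 libraries between 15 subunit genes chosen after their values were seen: 14 that occur in pairs that passed, and PSMD2. Red is positive and blue negative. PSMA4, PSMB1 and PSMD7 form a positive block (r = 0.86 to 0.91) and are negative against PSMD10 (r = -0.82 to -0.78).

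PSMD2 belonged to none of the 21 pairs. Over 14 libraries its r with the other 29 genes ran from -0.48 for PSMD5 to 0.64 for PSMD4, and 20 of 29 were positive. After adjustment over these 29 pairs 0 passed by permutation test, with 1 at an unadjusted p under 0.05. That pair was PSMD2 with PSMD4, with rho = 0.52 (permutation p = 0.0128 for r and 0.0592 for rho, adjusted p = 0.373 and 0.57). Its r was 0.32 without control replicates 4 and 7. On deviations from the group means r was 0.66 for PSMD4, or 0.62 without control replicates 4 and 5, and 0.66 for PSMA2 (permutation adjusted p = 0.155 each), with 26 of 29 positive. For PSMD5 r was -0.05 and rho 0.09 on these deviations. Among the 9 libraries without W-linked RNA the r of PSMD2 ran from -0.66 to 0.56, and 13 of 29 were positive.

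**Figure D5:**
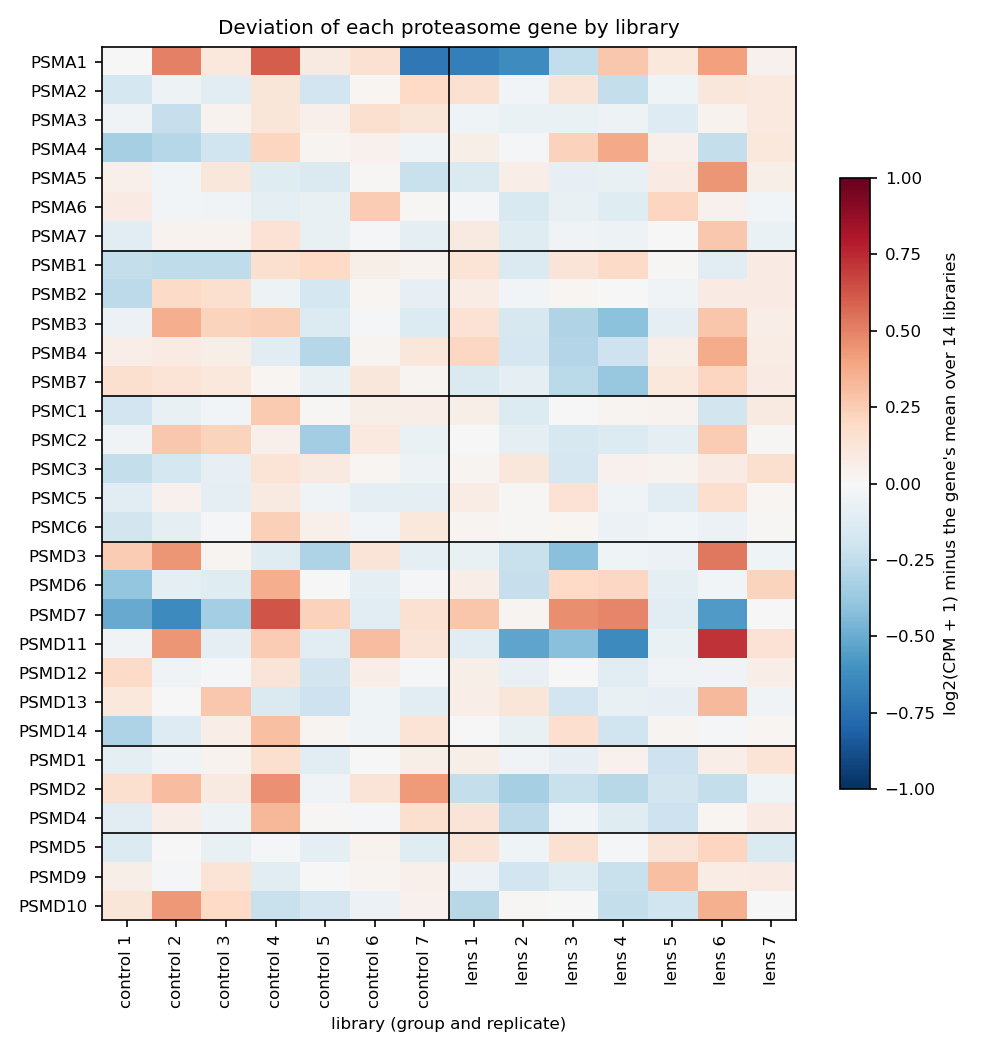
Deviation of log2(CPM + 1) from the mean of each gene over 14 libraries (colour), for the 30 genes in rows, grouped by class, and the libraries in columns, with controls to the left of the line. PSMD2 is below its mean in the 7 lens libraries and slightly below it in control replicate 5, while PSMD7 and PSMD11 vary in both groups.

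The genes lie scattered over the genome, in the GRCg6a build named by the submitters' processing notes. Chromosome 5 holds 7 of them and chromosome 27 holds 4, PSMB3, PSMC5, PSMD3 and PSMD11. PSMD2 lies on the plus strand of chromosome 9 from 16045264 to 16050982, and PSMD1 on the same chromosome from 15291664 to 15353112. No other gene of the table overlaps PSMD2. EIF4G1, a scaffold of translation initiation, starts 677 bases downstream on the same strand. It stood at 9.49 ± 1.91 CPM in controls and 7.73 ± 1.09 CPM in lens retinas (SD, n = 7 each; log2 fold change -0.26, limma adjusted p = 0.322, unadjusted p = 0.0319). ECE2 lies on the minus strand and starts 856 bases upstream of PSMD2, so that the genes point away from each other. It stood at 1.17 ± 0.224 and 0.941 ± 0.234 CPM (log2 fold change -0.17, adjusted p = 0.436). MUL1L, 7813 bases upstream of PSMD2, stood at -0.23 (limma adjusted p = 0.365, unadjusted p = 0.0477). Of the genes tested within 50000 bases of PSMD2, VWA5B2 and CHRD stood above 0 (0.03 and 0.13) and the others below. Over all genes tested 63.3% were below 0, and the region was not tested as a set. The counting of reads by strand is not given in the sources used here, so genes that overlap another on the opposite strand are uncertain. These were PSMA6, PSMB1, PSMC2, PSMD1 and PSMD12. PSMA5 and PSMC3 overlap a gene on their own strand and are uncertain as well. PSMC2 shares 2489 bases with DNAJC2, which averaged 8.26 CPM, and PSMB1 shares 137 bases with TBP, which averaged 5.30 CPM. PSMD1 shares 14448 bases with HTR2B, which averaged 0.085 CPM. The genes on the opposite strand of PSMA6 and PSMD12 averaged 0.31 and 0.75 CPM.

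Among genes that regulate, assemble or feed the proteasome, 0 of 35 tested passed by limma over all genes, and 4 had an unadjusted p under 0.05, 3 lower and 1 higher. Of all genes tested, 10.5% were lower and 3.03% higher at that level. The 3 lower genes came from the list of transcriptional control, 3 of its 7 members. NFE2L1, the activator of proteasome genes in mammals, ran from 12.3 to 18.8 CPM in controls and from 9.53 to 13.6 CPM in lens retinas, so the groups overlapped. Its mean was 14.8 ± 2.29 CPM in controls and 11.4 ± 1.48 CPM in lens retinas (SD, n = 7 each; log2 fold change -0.34, SE 0.09, limma adjusted p = 0.156). MAFF and MAFK, small MAF proteins that pair with factors of this family, stood at -0.35 and -0.25 (limma adjusted p = 0.142 and 0.196). NFE2L2, a related factor of the oxidative stress response, stood at 0.00, and the protease DDI2 and the glycanase NGLY1, which process NFE2L1 in mammals, at -0.05 and 0.05. NFE2L1 stood at -0.34 and MAFF at -0.32 in the fit with a W-linked term, and at -0.25 and -0.30 in the 9 libraries lacking such RNA. MAFK stood at -0.23 with the term and at -0.19 in the 9 libraries, where its limma unadjusted p was 0.0808.

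The lists of activators and inhibitors (4 tested), of assembly factors (5) and of associated subunits and deubiquitinases (5) had 0 members at an unadjusted p under 0.05 by limma. Their median log2 fold changes were -0.04, -0.02 and 0.06. PSME4, an activator that caps the core in place of the regulatory particle, stood at 68.3 ± 5.64 CPM in controls and 71.9 ± 6.70 CPM in lens retinas (SD, n = 7 each). POMP, the maturation factor of the core, stood at 11.2 ± 1.18 and 11.1 ± 1.14 CPM. USP14, which docks on PSMD2, stood at 7.61 ± 0.765 and 8.002 ± 0.838 CPM. Of the 14 genes of ubiquitin supply and delivery, 1 had an unadjusted p under 0.05, the shuttle UBQLN1, at 0.23 (limma adjusted p = 0.36). A W-linked term in the fit gave UBQLN1 a value of 0.03, as did the 9 libraries lacking such RNA (0.03). The polyubiquitin gene UBB stood at 461 ± 51.5 CPM in controls and 445 ± 35.9 CPM in lens retinas (SD, n = 7 each). The shuttle RAD23B stood at 37.2 ± 7.44 and 42.9 ± 5.55 CPM (SD, n = 7 each), a log2 fold change of 0.21. With a W-linked term the value of RAD23B was 0.008, and in the 9 libraries lacking such RNA it was -0.002. VCP and ZFAND5 of this list also shifted downward, to values below 0. VCP stood at 0.02, but at -0.22 with a W-linked term and -0.20 in the 9 libraries (limma unadjusted p = 0.0171 and 0.0396). ZFAND5 turned from 0.22 to -0.15 with the term and -0.13 in the 9 libraries (limma unadjusted p = 0.0429 and 0.0971). The cause of these shifts was not tested.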

How the data were processed

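The authors deposited CPM plus an offset of 0.0001 per gene and library, as read from the values. STAR and Partek, with GRCg6a, are named per the submitters' processing notes, and versions, annotation, counting and strand are not given in the sources used here. The columns sum to 303456 to 333244. Of low values, 93.0% to 93.8% per library lay within 0.02 reads of a whole multiple of 1 step, so reads are approximate and no count test was run. Intervals cover the spread between libraries. Chromosome names come from GRCg7b symbols. No transcript lengths or sequences were used, so levels are not compared between genes per length.

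Values were analysed as log2(CPM + 1) for 14259 genes with at least 7 libraries at 0.5 CPM computed on the column sum. Groups are those of the treatment label. The comparison used limma 3.58.1 under R 4.3.3 (eBayes with trend, two-sided, Benjamini-Hochberg over all genes, threshold 0.05), tested on simulated data, and with exact permutation tests. W-linked RNA was called where log2(HINTW + 1) exceeded 2. Members, lists and classes were chosen with earlier results of these data known. Genes with full statistics are PSMD2, the extremes of each class, and list members at an unadjusted p under 0.05, with up to 4 per list; other genes, neighbours of PSMD2 included, are named for their role or position and were chosen after their values were seen. Alternatives were other pseudocounts, filters, scalings, covariates, variance models and each library left out; voom and the tests of pairs were added after seeing the data. Python 3.11.15, NumPy 2.4.6, SciPy 1.17.1, pandas 2.3.3 and matplotlib 3.10.9 made tables and figures.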

Additional observations from a re-analysis of the deposited data

Results flagged for a closer look

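Of 60 sets of 7 libraries checked (30 genes in 2 groups), 5 held a library far from the others, where chance gives about 1 in 20. Lens replicate 6 was the highest lens library for PSMA5 at 7.10 CPM, PSMC2 at 18.5 CPM, PSMD10 at 3.47 CPM and PSMD3 at 14.5 CPM, and the next libraries stood at 5.32, 15.5, 2.52 and 9.44 CPM. Lens replicate 3 was the lowest lens library for PSMC3 at 23.9 CPM, and the next stood at 27.5 CPM.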

How the results depend on the processing

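PSMD2 kept its direction under every alternative run and had the lowest log2 fold change of the 30 genes in each. It passed 0.05 with a pseudocount of 0.1 (-0.49), a filter of 2 CPM (-0.44) and the code letter as covariate (-0.44). In those fits 1 subunit gene was called in place of 0. PSMD2 did not pass with median ratio scaling, equal column sums or quantile normalization (limma adjusted p = 0.0529, 0.0504 and 0.0645). Nor did it pass with robust eBayes or voom (limma adjusted p = 0.0535 and 0.0686). With each library left out PSMD2 ran from -0.48 to -0.40, and 0 to 1 subunit genes were called. Over all genes tested, 11 were called, against 0 without a filter or with quantile normalization, 1 with median ratio scaling, 19 with W-linked RNA as a covariate, 2 in the libraries without it, 17 with the code letter, and 0 to 18 with a library left out. Subunit genes at an unadjusted p under 0.05 numbered 2 with median ratio scaling, equal column sums, quantile normalization and without W-linked libraries (1 to 4 with a library left out). By exact permutation they numbered 3, 3, 4 and 3 (1 to 3). The median of the subunits, -0.0196 in the main fit, was 0.059 without W-linked libraries and -0.0276 to 0.0144 with a library left out. It turned to 0.0307 with median ratio scaling, 0.0076 with equal column sums, 0.0148 with quantile normalization and 0.0066 with the W covariate. PSMD1 turned from -0.01 to 0.0453 with median ratio scaling, 0.0217 with equal column sums, 0.0099 with quantile normalization, 0.0367 with the W covariate and 0.0568 without W-linked libraries, and ran from -0.0296 to 0.0281 with a library left out. Without W-linked libraries PSMC2 turned to 0.0812, PSMD10 to 0.0176, PSMB3 to 0.0612, PSMC6 to 0.0508 and PSMD14 to 0.127, among others. Over the alternatives that left out no single library, 10 subunit genes turned sign. With a library left out 8 did. Pairs that passed by Pearson r numbered 49 on deviations from group means, 1 without W-linked libraries and 3 to 25 with a library left out. By Spearman's rho they numbered 12 on those deviations, against 18 over all libraries. Centring within groups was not allowed for in the permutations, so p-values on those deviations may be too small. The regulator and ubiquitin lists had 0 calls with each library left out. The causes were not tested. No paired analysis was possible because no number in the sample codes is shared between the groups. The count test on recovered reads was not run, since too few values were whole multiples. PSMD2 rested on 184 to 425 reads per library, and counting error was not separated from the spread between libraries.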
